A study of Rattus norvegicus with 9 samples.

Results

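The loci described here are the places in the rat genome where transcript assembly produced 2 or more different predicted long non-coding RNAs (lncRNAs). A predicted lncRNA carries an identifier that begins with MSTRG, in which the part before the last dot names the locus and the last number names the transcript. The 369 multi-transcript loci held 1195 of the 3251 predicted lncRNAs in the count table, which has 44059 transcripts in all. The remaining predicted lncRNAs came from 2035 loci with 1 transcript and from 4 multi-transcript loci (MSTRG.2024, MSTRG.288, MSTRG.17966 and MSTRG.16732, with 21 transcripts) that were left out. Most of the loci were small, with 254 of 369 holding exactly 2 transcripts. Transcript number was very uneven at the other end, since 12 loci with 10 or more transcripts held 301 of the 1195, and MSTRG.1537 alone held 115.

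A lncRNA is an RNA longer than a typical small RNA that is not translated into protein. Many lncRNA genes are expressed in brain cortex in a cell-type-specific way and are spliced or started in several ways, so that one gene gives several transcripts that share part of their sequence. In the assembly of short reads, such transcripts are grouped into a locus, and a read from a shared part has to be divided among them. The summed count of a locus does not depend on how reads are divided among the transcripts summed, whereas the count of each transcript does. Only transcripts kept as predicted lncRNAs are summed, and their numbers can have gaps. MSTRG.10170, for example, holds only MSTRG.10170.7 and MSTRG.10170.11. Reads shared with a transcript outside the sum could still alter the sum and the shares, which was not tested. None of the loci carries a gene name, a sequence or a genome position in the sources used here, so none is placed in the genome and no sequence is shown.

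RNA came from the cortex at the infarct site of male Sprague-Dawley rats aged 7 to 8 weeks, 3 rats in each group, all sacrificed at 24 h. In the Sham group the neck vessels were exposed without inserting a filament. In the IR group a filament closed the middle cerebral artery for 2 h (transient middle cerebral artery occlusion, tMCAO) and was then withdrawn to let blood return. Rats of the DEX group were given 50 μg/kg of dexmedetomidine (DEX), a sedative α2-adrenergic agonist, by intraperitoneal injection 30 min before the same occlusion, and the Sham and IR rats received saline. This follows the study's methods, while its abstract also names a dose after reperfusion. The libraries held 21691473 to 36039743 counts, fewest in Sham. All pairs of libraries within a group differed by more than sampling noise, with a chi-square per degree of freedom of 23.8 to 301 over transcripts. Libraries are named below by group and replicate number, and levels are in CPM, counts per 1000000 of the scaled library total. The table pairs no identifier with a gene symbol, so the cell types in the dissected cortex were not checked against markers.

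The multi-transcript loci took a smaller part of the RNA after ischemia. They received 3.76%, 4.13% and 3.96% of all counts in Sham libraries 1 to 3. The share was 1.99%, 1.39% and 2.22% in IR, and 2.27%, 2.05% and 1.12% in DEX. The Sham libraries did not overlap with either of the other groups, while IR and DEX did. The share was 3.95% ± 0.187 (SD, n = 3) in Sham, 1.87% ± 0.427 in IR and 1.81% ± 0.606 in DEX. A two-sided exact permutation test gave p = 0.1 for Sham against IR and for Sham against DEX, the smallest p that 3 rats against 3 allow, and p = 1.0 for DEX against IR. The difference between IR and Sham was -2.09 percentage points, or -1.85 without IR library 2, and that between DEX and Sham was -2.14, or -1.80 without DEX library 3. DEX minus IR was -0.0531, turned to 0.291 without DEX library 3 and was more negative without IR library 2. The share of loci with 1 transcript moved likewise, with means of 8.05% in Sham, 4.71% in IR and 4.39% in DEX. In bulk tissue, fewer cells of a type that makes these RNAs and less of the RNA in each cell cannot be told apart.

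Single libraries stood out within the injured groups. Library 2 of IR and library 3 of DEX had the lowest shares of their groups. They were also the lowest for loci with 1 transcript, at 4.10% and 3.50% of all counts. Among 354 loci with at least 10 counts in every library, 82 were under 0.5 of the mean of the other 2 libraries of the group in IR 2, and 128 in DEX 3. In each of the other 7 libraries this count lay between 3 and 12. As many as 66 loci were low in both of these libraries. The part of these libraries in the results was not tested, and the main counts are given with and without them.

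**Figure D1:**
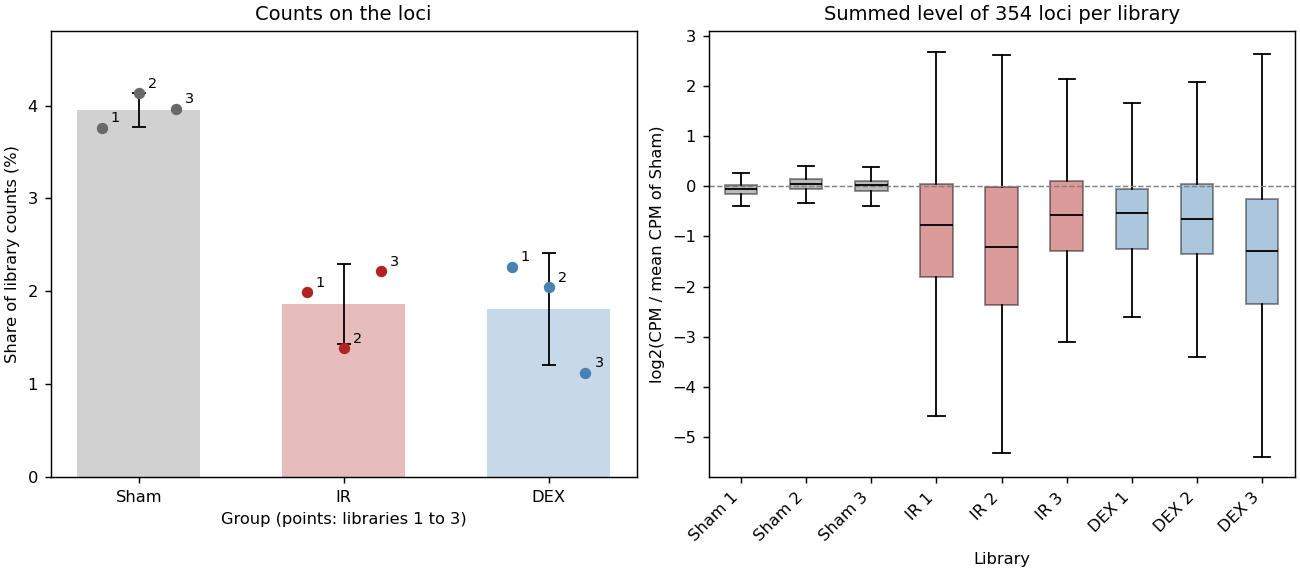
Left, share of all counts (%) on the 369 loci in each library (points, numbered), with the group mean (bar) and SD (error bar, n = 3). Right, summed level of the 354 loci with at least 10 counts in every library, as the log2 ratio of CPM to the Sham mean, with boxes for the quartiles, a line for the median and whiskers to the last value within 1.5 box lengths. The Sham medians lie between -0.06 and 0.04, the IR medians between -1.21 and -0.58 and the DEX medians between -1.28 and -0.54, and IR 2 and DEX 3 are the lowest.

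The comparison of IR with Sham asks which loci changed after occlusion and reperfusion. Of the 369 loci, 366 passed the filter on low counts and were tested on their summed counts with edgeR's quasi-likelihood test. At a Benjamini-Hochberg adjusted p under 0.05, 187 loci (51.1%) were lower in IR and 52 (14.2%) were higher. Without IR library 2 the counts were 177 and 43. Over all 25186 loci and annotated transcripts tested in the same fit, 21.2% were lower and 23.2% were higher. The median log2 fold change was -0.83 over the multi-transcript loci, against 0.03 over all features, -0.52 over the loci with 1 transcript and 0.07 over annotated transcripts. Loci with 1 transcript were lower in 776 and higher in 308 of 1911 tested. The median fold was 3.15 among the lowered loci and 2.18 among the raised ones.

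Lowered loci outnumbered raised ones whatever the number of transcripts. Loci with exactly 2 transcripts, which lie just inside the definition, had a median log2 fold change of -0.84, with 129 lower and 31 higher of 252 tested. Loci with 3 to 9 transcripts had a median of -0.56, with 51 lower and 20 higher of 102, and the 12 loci with 10 or more had a median of -1.28, with 7 lower and 1 higher. Group ranges did not overlap for 217 loci that were lower in every IR library than in any Sham library, and for 64 that were higher, out of 369. The corresponding shares of all features tested were 28.4% and 30.8%. At the cutoff named in the study's methods, an absolute log2 fold change over 0.8 and p under 0.05 without adjustment, the loci gave 175 lower and 38 higher, against 16.8% and 18.9% of all features.

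MSTRG.10467 showed the largest rise among loci with a mean of at least 1 CPM in both groups. It was at 4.47, 4.13 and 7.58 CPM in Sham, 71.1, 80.3 and 74.3 in IR, and 22.7, 41.4 and 59.7 in DEX. The IR libraries lay close together and far above Sham, and the DEX libraries lay between the 2 groups without touching either. The log2 fold change in IR against Sham was 3.80 (SE 0.25, adjusted p = 0.000337). Its counts came from transcript MSTRG.10467.1, which took 100% of the locus in every Sham and IR library and 80.2% in DEX library 3.

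MSTRG.1317 was at 9.30, 8.54 and 9.15 CPM in Sham and at 32.9, 37.2 and 37.8 in IR, a log2 fold change of 2.0 (SE 0.11, adjusted p = 0.000255). In DEX it was at 9.57, 14 and 19.6 CPM, above every Sham library and below every IR library. MSTRG.4526 followed the same order, with 7.03, 5.75 and 6.80 CPM in Sham, 42.0, 39.8 and 28.8 in IR, and 17.4, 25.5 and 31.6 in DEX. Its log2 fold change in IR against Sham was 2.5 (SE 0.19, adjusted p = 0.000445), and its IR and DEX libraries overlapped.

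The other 3 of the 6 largest rises started from a low level. MSTRG.9619, a locus with 9 transcripts, was at 0.504, 2.16 and 0.854 CPM in Sham, 9.84, 16.1 and 8.29 in IR, and 8.46, 10.4 and 30.3 in DEX. MSTRG.11746 rose from a mean of 2.21 to 12.1 CPM and MSTRG.6495 from 1.59 to 7.57 CPM. In DEX their means were 12.7 and 9.69 CPM, not below IR. The log2 fold changes in IR against Sham were 3.30 (SE 0.58, adjusted p = 0.00513), 2.46 (SE 0.35, adjusted p = 0.00251) and 2.24 (SE 0.57, adjusted p = 0.0196) for MSTRG.9619, MSTRG.11746 and MSTRG.6495. The call of MSTRG.6495 was lost, at adjusted p = 0.0567 to 0.0601, without Sham library 2, Sham library 3 or IR library 2.

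The largest falls were in 2 loci with consecutive numbers, MSTRG.4831 and MSTRG.4832. MSTRG.4831 was at 291, 274 and 204 CPM in Sham, 10.7, 6.45 and 9.65 in IR, and 23.5, 10.1 and 6.41 in DEX. MSTRG.4832 was at 184, 167 and 131 CPM in Sham, 7.94, 4.54 and 6.56 in IR, and 17.4, 7.29 and 3.82 in DEX. Both were far below Sham in all 6 libraries of rats with tMCAO. They fell by 4.84 (SE 0.26, adjusted p = 0.000236) and by 4.66 (SE 0.26, adjusted p = 0.000251) on the log2 scale in IR, which are 28.7-fold and 25.2-fold falls.

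MSTRG.17830, one of the more abundant loci in Sham, was at 289, 400 and 342 CPM there, 38.6, 19.5 and 32.1 in IR, and 117, 32.4 and 18.5 in DEX. It fell by 3.52 on the log2 scale (SE 0.29, adjusted p = 0.000554), and library 1 of DEX was above every IR library. MSTRG.12646 fell from a mean of 64.5 ± 3.22 to 5.85 ± 2.30 CPM (SD, n = 3), MSTRG.7460 from 83.2 ± 2.76 to 8.03 ± 2.98 and MSTRG.11617 from 37.3 ± 4.76 to 3.65 ± 0.746. The falls were 11-fold, 10.4-fold and 10.2-fold. In all 3 of these loci, library 3 of DEX was the lowest of the 9 libraries.

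**Figure D2:**
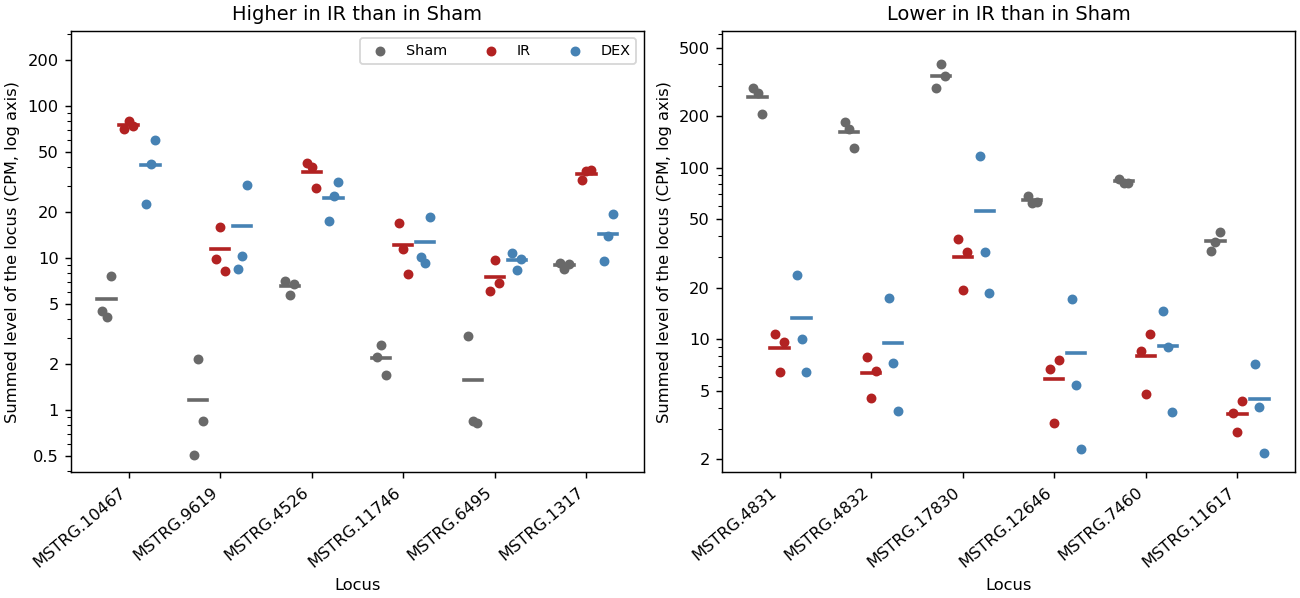
Summed level of each locus (CPM, log axis) in the 3 libraries of each group (points) and the group mean (line), for the 6 largest rises (left) and the 6 largest falls (right) in IR against Sham among loci with an adjusted p under 0.05, no overlap and group means of at least 1 CPM. MSTRG.10467 goes from a mean of 5.40 to 75.2 CPM and MSTRG.4831 from 256 to 8.93 CPM.

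The 5 loci with the highest mean level were not all changed. MSTRG.2624 was at 1070, 1153 and 981 CPM in Sham, 216, 108 and 273 in IR and 339, 228 and 86.8 in DEX, a fall of 2.43 on the log2 scale in IR (SE 0.33, adjusted p = 0.00225). MSTRG.7697 fell by 1.72 (SE 0.36, adjusted p = 0.00957), from a mean of 1061 to 322 CPM, and MSTRG.1662 by 1.27 (SE 0.15, adjusted p = 0.00138), from 675 to 281 CPM. MSTRG.10375 (749 CPM in Sham and 597 in IR, adjusted p = 0.102) and MSTRG.16991 (762 and 382 CPM, adjusted p = 0.0844) did not pass the test. Library 2 of IR was the lowest of its group in MSTRG.2624, MSTRG.7697, MSTRG.10375 and MSTRG.16991. MSTRG.16991 passed with a log2 fold change of -1.45 (adjusted p = 0.0178) when library 3 of IR was left out, and MSTRG.10375 did with -0.44 (adjusted p = 0.024).

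Among the 5 loci with the most transcripts, the summed level of MSTRG.1662 (34 transcripts) and of MSTRG.3855 (20 transcripts) was lower in IR. MSTRG.3855 was at 115, 109 and 94.4 CPM in Sham and 48.3, 46.6 and 78.0 in IR, a log2 fold change of -0.89 (SE 0.21, adjusted p = 0.0164). Without Sham library 1, Sham library 2 or IR library 1 its adjusted p was between 0.0529 and 0.0609. MSTRG.1537, with 115 transcripts, was at 548, 605 and 441 CPM in Sham, 323, 80.7 and 365 in IR, and 337, 568 and 96.9 in DEX. Its low values were again those of IR 2 and DEX 3, and its adjusted p in IR against Sham was 0.14, or 0.0317 with a log2 fold change of -0.63 without IR 2. MSTRG.5552 (29 transcripts, adjusted p = 0.0785) had its lowest values, 6.0 and 6.62 CPM, in the same 2 libraries and passed without IR 2 (log2 fold change -0.87, adjusted p = 0.00537). MSTRG.12046 (21 transcripts) had means of 216 and 162 CPM in Sham and IR (adjusted p = 0.14).

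The comparison of DEX with IR asks what the DEX treatment changed. Of 366 loci tested, 0 were called at an adjusted p under 0.05 in either direction by edgeR's quasi-likelihood test, as were 0% of all 25296 features, and the smallest adjusted p of a locus was 0.979. A DESeq2 Wald test called 3 loci and limma-voom called 0. At an unadjusted p under 0.05, 26 loci were lower with DEX and 4 were higher, against 2.03% and 1.93% of all features, where 26 of 366 is 7.10% and 4 of 366 is 1.09%. These counts were not stable. Those lower were 6 without IR library 1, 16 without IR library 2, 15 without DEX library 2, 41 without DEX library 3 and 9 with the replicate number as a block, and those higher were 2, 3, 3, 21 and 4. Without IR library 3 there were 18 lower and 14 higher. At the study's cutoff 4 loci were lower and 3 higher, against 1.19% and 1.16% of all features. This count of 7 was 3 without IR library 1, 11 without IR library 3 and 27 without DEX library 3. Group ranges did not overlap for 35 loci that were lower and 10 that were higher with DEX, against 4.92% and 4.14% of all features. They were 52 and 13 without IR library 2, and 65 and 65 without DEX library 3, where the smaller group makes an overlap less likely. The shares of all features with a library left out are not given, so these counts cannot be set against 4.92% and 4.14%. The median log2 fold change was 0.03 over the loci and 0.01 over all features.

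Both comparisons use the same IR libraries, and the loci below were chosen for a difference from the same Sham libraries, so the position of DEX relative to either group is a description. Of the 52 loci that were higher in IR, 33 (63.5%) had all 3 DEX libraries above every Sham library, as did 81.1% of all 5835 features that were higher in IR. Of the 187 that were lower, 176 (94.1%) had all DEX libraries below every Sham library, as did 79.6% of all 5328 such features. Among all features tested, 24.2% lay wholly above and 23.4% wholly below Sham in DEX. The DEX mean was between those of Sham and IR for 41 of the 52 (78.8%, against 75.2% of such features) and for 132 of the 187 (70.6%, against 82.3%). It was below IR for 54 of the 187, a count of 102 without IR library 2 and of 28 without DEX library 3, with 84 and 156 then between. The count of lowered loci with all DEX libraries below Sham was 176 without DEX library 3 as well.

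The 4 loci with the smallest p among those higher with DEX were MSTRG.1548, MSTRG.3855, MSTRG.1662 and MSTRG.1468. MSTRG.1548 was at 3.35, 8.54 and 6.76 CPM in Sham, 1.24, 0.999 and 1.60 in IR, and 4.18, 5.22 and 2.63 in DEX. All 3 DEX rats were above all 3 IR rats, with a log2 fold change of 1.64 (SE 0.37, unadjusted p = 0.00369, adjusted p = 0.979). MSTRG.3855 was at 127, 119 and 88.2 CPM in DEX against 48.3, 46.6 and 78.0 in IR (log2 fold change 0.95, SE 0.26, unadjusted p = 0.00966), and these ranges did not overlap either. MSTRG.1662 was at 384, 421 and 406 CPM against 250, 258 and 334 (log2 fold change 0.52, SE 0.17, unadjusted p = 0.0202). In MSTRG.1468 the groups overlapped, with 9.41, 13.5 and 3.51 CPM in DEX and 4.0, 4.3 and 3.33 in IR.

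Among loci lower with DEX, MSTRG.1317 had the smallest p. Its log2 fold change in DEX against IR was -1.32 (SE 0.27, unadjusted p = 0.00218, adjusted p = 0.979), with no overlap. MSTRG.2674 was at 46.2, 45.7 and 48.3 CPM in IR and 34.4, 33.2 and 33.7 in DEX, below the 40.4, 45.8 and 44.1 of Sham as well. Its spread within groups was small and its log2 fold change was -0.47 (SE 0.12, unadjusted p = 0.00788). MSTRG.59 had means of 42.3 CPM in Sham, 62.7 in IR and 44.7 in DEX (unadjusted p = 0.00919), and MSTRG.9857 had means of 9.81, 26.5 and 16.7 CPM (unadjusted p = 0.00968). The 3 loci that DESeq2 called were MSTRG.1548, MSTRG.1317 and MSTRG.2674, at adjusted p = 0.0239, 0.0147 and 0.0236. On counts simulated for this comparison, DESeq2 recovered 78 of 200 changed features and made 70 false calls, while edgeR recovered 21 and made 2.

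**Figure D3:**
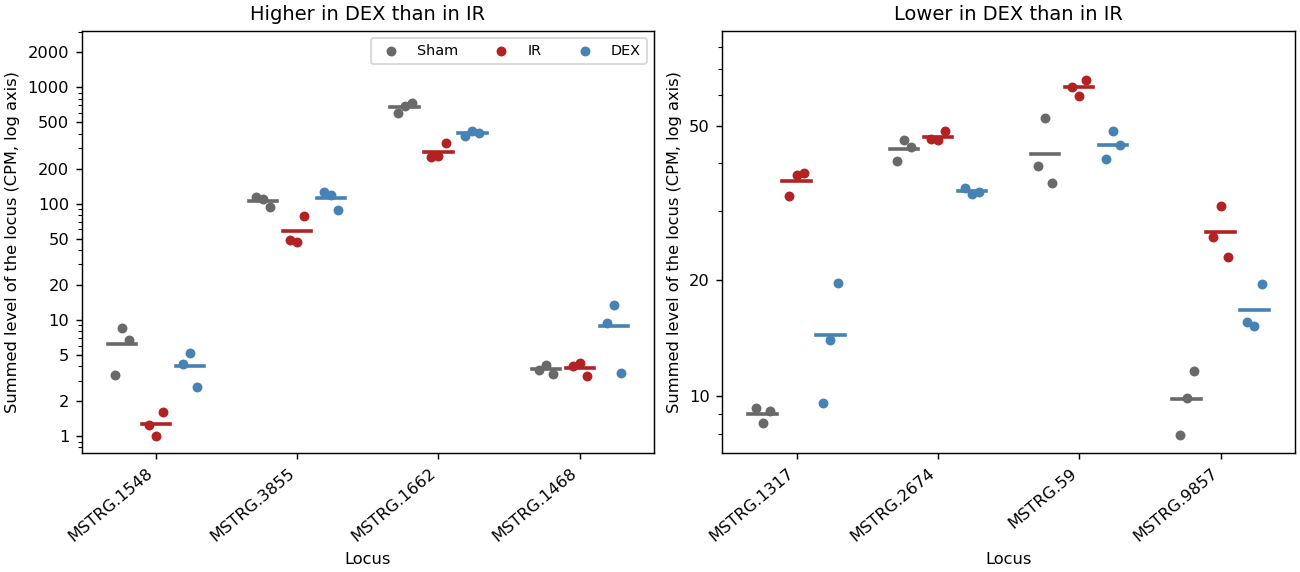
Summed level of each locus (CPM, log axis) in the 3 libraries of each group (points) and the group mean (line), for the 4 loci with the smallest unadjusted p in each direction in DEX against IR. For MSTRG.1317 the IR libraries lie between 32.9 and 37.8 CPM and the DEX libraries between 9.57 and 19.6 CPM, and for MSTRG.1468 the groups overlap.

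The single transcripts of these loci behaved differently from their sums. A count was present in every library for 360 of 369 loci but for only 662 of 1195 transcripts. In 137 transcripts (11.5%) a Sham library had 0 counts while another Sham library had 100 or more. The number was 144 (12.1%) in IR and 132 (11%) in DEX, and 288 transcripts of 174 loci did so in at least 1 group. No summed locus did so (0 of 369), and of 40808 annotated transcripts 376 (0.921%) did. Many annotated transcripts never reached 100 counts. Among rows that did in some library, the shares were 32.0% of 901 transcripts of these loci and 2.10% of 17909 annotated ones. In 281 of the 413 cases, counted by transcript and group, the summed level of the locus in its highest library was under 2 times that in its lowest. The within-group coefficient of variation had a median of 26.3% over transcripts and 9.76% over summed loci in Sham, 49.9% and 24.6% in IR, and 56.4% and 33.9% in DEX, among rows with a mean of at least 100 counts. For loci with 1 transcript the medians were 10.5%, 21.6% and 33.4% in Sham, IR and DEX.

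MSTRG.16991 shows the pattern in an abundant locus. Transcript MSTRG.16991.1 had 19319, 16211 and 15221 counts in Sham, 14243, 3 and 19927 in IR, and 22919, 26719 and 493 in DEX. Transcript MSTRG.16991.2 had 0, 0 and 9977 counts in Sham, 0, 5847 and 0 in IR, and 0, 0 and 3544 in DEX. In IR 2 and DEX 3 the second transcript held 99.9% and 87.8% of the locus, and in 6 of the 9 libraries it held none. How reads shared by transcripts of a locus were divided is not given in the sources used here, so the counts of single transcripts are uncertain one by one.

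**Figure D4:**
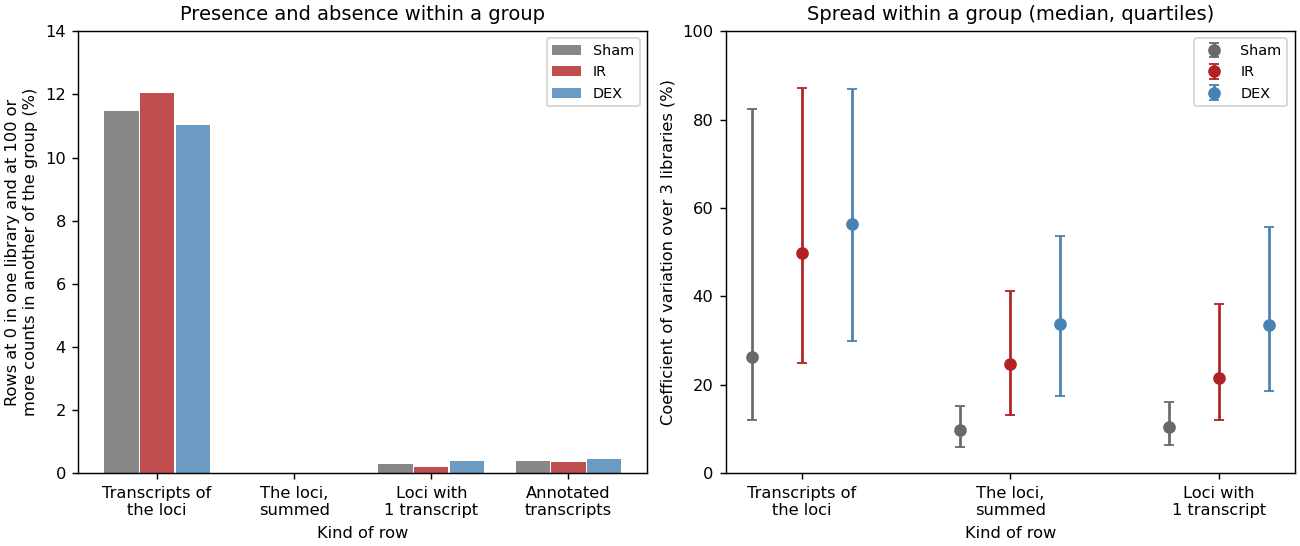
Left, share of rows (%) with 0 counts in one library and 100 or more in another library of the same group, for the 1195 transcripts, the 369 summed loci, the 2035 loci with 1 transcript and the 40808 annotated transcripts. Right, coefficient of variation over the 3 libraries of a group (%), as the median (point) and quartiles (bars) of rows with a mean of at least 100 counts. The transcripts reach 11% to 12.1% on the left, where the summed loci are at 0.

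The leading transcript of a locus, the one with the highest mean share of its counts in a group, was compared in the 277 loci with at least 100 summed counts in every library. It held a median of 79.2% of the locus in Sham, 74.6% in IR and 79.4% in DEX. One transcript led in all 9 libraries in 132 loci, 2 transcripts took turns in 117, and 3 or more in 28. Between groups, the leader differed in 46 loci for Sham against IR and in 47 for IR against DEX. The change often did not hold in each rat, since the 3 libraries of one group shared a leader in only 199 loci in Sham, 180 in IR and 191 in DEX. One transcript led in every Sham library and another in every IR library in 7 loci (MSTRG.9266, MSTRG.8258, MSTRG.4831, MSTRG.10170, MSTRG.20966, MSTRG.4326 and MSTRG.9633), and between IR and DEX this was so in 1 locus, MSTRG.9633.

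Of these, MSTRG.8258, MSTRG.10170, MSTRG.20966, MSTRG.4326 and MSTRG.9633 were picked out after their values were seen. In MSTRG.10170 the shift was small and regular, since MSTRG.10170.7 held 44.9%, 45.7% and 44.3% of the locus in Sham, 53.2%, 54.2% and 51.7% in IR and 56.8%, 52.9% and 55.3% in DEX. In MSTRG.4326 the share of MSTRG.4326.4 was 10.6%, 30.8% and 31.7% in Sham, 63.9%, 62.3% and 60.6% in IR, and 50.3%, 55.8% and 67.3% in DEX. In MSTRG.9633 the share of MSTRG.9633.1 was 36.4%, 0% and 17.7% in Sham, 62.5%, 64.1% and 79.0% in IR, and 23.5%, 36.6% and 44.4% in DEX. None of these 3 loci was called by the test of shares.

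Whether the transcripts of a locus changed by different amounts was tested with edgeR's diffSpliceDGE in loci with 2 or more tested transcripts. In IR against Sham, 10 of 269 loci passed (adjusted p under 0.05), or 3.72%. The share over all 273 predicted loci tested, 4.03%, is no separate background, since 269 of them are these loci. They were MSTRG.1662, MSTRG.9266, MSTRG.18648, MSTRG.8517, MSTRG.8839, MSTRG.12527, MSTRG.10739, MSTRG.4832, MSTRG.4831 and MSTRG.1094, the last of which was not among the loci to be named and was picked out after its values were seen. With only transcripts that had at least 10 counts in every library, 1 of the calls was left, since that filter removes any transcript listed at 0, and 3 loci passed with the replicate number as a block. On simulated counts the test recovered 60% of 30 loci with changed shares and made 5 false calls. The simulated transcripts were drawn independently of each other. Those false calls therefore do not cover counts that pass between transcripts of a locus within a group.

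In MSTRG.9266 one transcript held the Sham counts and another held the IR counts. MSTRG.9266.1 had 481, 344 and 532 counts in Sham, 25, 34 and 10 in IR, and 400, 680 and 227 in DEX. MSTRG.9266.2 had 0 counts in all 3 Sham libraries, 939, 573 and 879 in IR, and 755, 0 and 0 in DEX. The summed level was 17.3, 15.5 and 18.2 CPM in Sham, 25.5, 18.4 and 26.4 in IR and 35.5, 19.8 and 7.74 in DEX, and it did not pass the test in IR against Sham (log2 fold change 0.46, SE 0.17, adjusted p = 0.0639). MSTRG.9266.1 held 100% of the locus in every Sham library and 3.11% ± 2.28 (SD, n = 3) in IR, and it fell by 4.66 on the log2 scale (SE 0.45, adjusted p = 0.0011).

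Against a floor of 3 counts in each Sham library, MSTRG.9266.2 was at least 202-fold higher in IR. Such bounds cover counting error only. The adjusted p of the share test was 0.000206 for MSTRG.9266. With DEX the rats differed among themselves, since MSTRG.9266.1 held 34.6%, 100% and 100% of the locus, and the locus was not called in DEX against IR. The level of MSTRG.9266.1 had a log2 fold change of 4.32 there (SE 0.59, unadjusted p = 0.0002), which did not pass adjustment over all transcripts.

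In MSTRG.18648 one transcript was listed at 0 in the IR libraries and counted in all the others. MSTRG.18648.8 had 261, 305 and 232 counts in Sham, 0 in all 3 IR libraries, and 737, 132 and 308 in DEX. MSTRG.18648.9 had 580, 403 and 735 counts in Sham, 1626, 1211 and 1111 in IR, and 171, 831 and 710 in DEX. The summed level had means of 31.7 ± 1.37, 37.6 ± 5.08 and 30.2 ± 3.88 CPM (SD, n = 3; adjusted p = 0.165 in IR against Sham). MSTRG.18648.8 was at least 117-fold higher in Sham and at least 141-fold higher in DEX than in IR. The shares passed in both comparisons, with adjusted p = 0.000206 in IR against Sham and adjusted p = 0.019 in DEX against IR, which use the same IR libraries.

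MSTRG.8517, MSTRG.12527 and MSTRG.8839, all called by the test of shares, had a lowered sum and a transcript at 0 in every IR library. Loci outside these calls showed this too, such as MSTRG.6581. MSTRG.8517.2 had 1458, 905 and 2802 counts in Sham and 0 in all 6 libraries of rats with tMCAO, while the sum of MSTRG.8517 fell 3.17-fold in IR (adjusted p = 0.00033). MSTRG.12527.1 had 953, 923 and 431 counts in Sham, 0 in IR, and 80, 227 and 0 in DEX, and its locus fell 5.0-fold (adjusted p = 0.00196). MSTRG.8839.1 had 166, 111 and 268 counts in Sham, 0 in IR, and 120, 0 and 94 in DEX, and its locus fell 2.40-fold (adjusted p = 0.00871). Relative to 3 counts in each IR library, these transcripts were at least 714-fold, 342-fold and 76.0-fold higher in Sham.

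In MSTRG.10739 a transcript listed at 0 in Sham was counted in IR while the sum fell. MSTRG.10739.4 had 0 counts in all Sham libraries, 3896, 1064 and 1759 in IR, and 351, 3826 and 0 in DEX, at least 557-fold higher in IR. The leading MSTRG.10739.2 had 9914, 8305 and 10735 counts in Sham and 4072, 4412 and 6465 in IR, and the sum went from 392 ± 9.01 to 223 ± 39.4 CPM (SD, n = 3; adjusted p = 0.00525). In MSTRG.4832 the minor transcript MSTRG.4832.3 held 2.3%, 4.8% and 2.6% of the locus in Sham and 36.0% to 38.9% in IR, as its counts of 119, 177 and 100 became 108, 58 and 86 and those of MSTRG.4832.1 went from 3300, 2345 and 2469 to 88, 67 and 82.

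**Figure D5:**
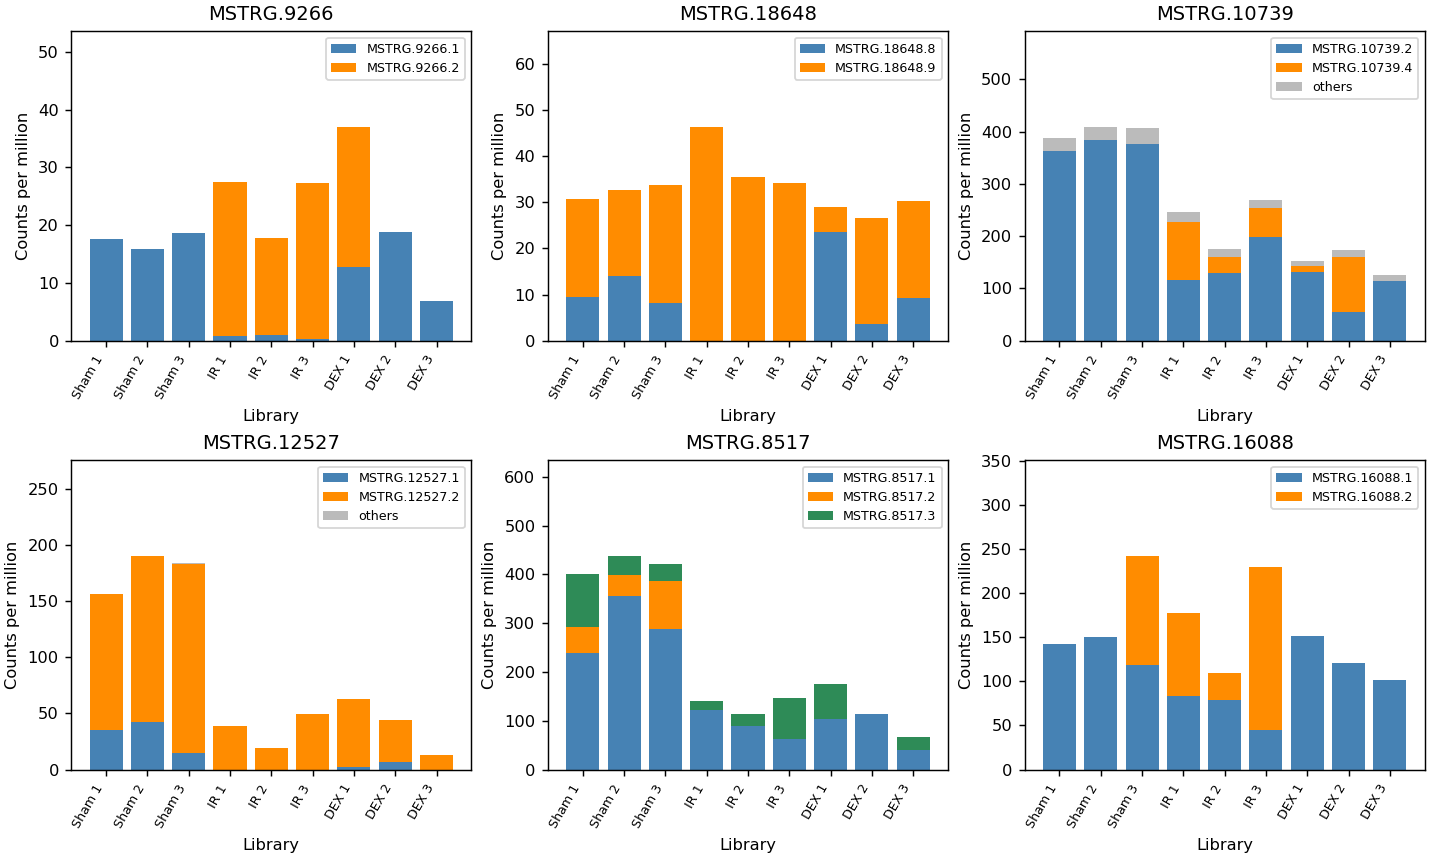
Counts of each library scaled to the same total (counts per 1000000), stacked by transcript, for 6 loci that passed the test of shares in at least 1 comparison. The column height is the sum of the locus without the TMM scaling of the CPM values in the text, so it differs somewhat from them. In MSTRG.9266 the Sham columns hold only MSTRG.9266.1 and the IR columns almost only MSTRG.9266.2, in MSTRG.18648 the IR columns hold no MSTRG.18648.8, and in MSTRG.16088 the DEX columns hold no MSTRG.16088.2.

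In DEX against IR, the shares passed in 4 of 256 loci (1.56%), and in 1.93% of all 259 predicted loci tested, nearly all of which are these. The count was 0 with the replicate number as a block. It was 2 without IR library 2, 1 without IR library 3, 2 without DEX library 2 and 9 without DEX library 3, and 0 with only transcripts that had at least 10 counts in every library. On simulated counts the test recovered 16.7% of 30 changed loci in this comparison, with 3 false calls, again with transcripts drawn independently. The 4 loci were MSTRG.16088, MSTRG.1662, MSTRG.1626 and MSTRG.18648, and again none of their sums had an adjusted p under 0.05.

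MSTRG.16088.2 had 0, 0 and 3544 counts in Sham, 3300, 1007 and 6036 in IR, and 0 in all DEX libraries. It was counted in all 3 IR libraries, in 1 of the 3 Sham libraries and in none with DEX, with the uncertainty of single transcripts given above. MSTRG.16088.1 had 3905, 3259 and 3380 counts in Sham, 2927, 2707 and 1447 in IR, and 4723, 4355 and 3387 in DEX. MSTRG.16088.2 was at least 1065-fold higher in IR than in DEX, while the sums had means of 166 ± 54.9 and 129 ± 15 CPM (SD, n = 3). The adjusted p of the share test was 0.00431.

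In MSTRG.1626 the second transcript MSTRG.1626.2 had 49, 0 and 219 counts in Sham, 69, 179 and 191 in IR and 0 in all DEX libraries (adjusted p of the shares 0.00907), with at least 46.1-fold more in IR. In MSTRG.1662, MSTRG.1662.27 was the transcript whose share departed most from the rest in both comparisons. It had 805, 593 and 1632 counts in Sham, 18, 0 and 2 in IR, and 22, 920 and 22 in DEX. It was low in every IR library, and in DEX the higher value came from library 2 alone. The share test gave adjusted p = 1.05e-08 for MSTRG.1662 in IR against Sham and 0.00492 in DEX against IR, and the transcript held 5.43% ± 1.98 of its locus in Sham (SD, n = 3).

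Tested one by one, 947 of the 1195 transcripts passed the filter in IR against Sham. Of these, 278 were lower and 52 higher (adjusted p under 0.05), against 20.4% and 22.4% of all 25777 transcripts, and the median log2 fold change was -0.91. Without IR library 2, 245 were lower and 54 higher. Of the 239 loci with a called sum, 182 also had a called transcript. In the other 57 no transcript was called, and in 16 loci a transcript was called and the sum was not. Transcripts of one locus were called in opposite directions in 4 loci, MSTRG.2786, MSTRG.9266, MSTRG.10739 and MSTRG.18648. The sum of MSTRG.2786 had a log2 fold change of 0.03 (SE 0.20, adjusted p = 0.923), while MSTRG.2786.1 went from 299, 191 and 283 to 175, 224 and 121 counts and MSTRG.2786.2 from 0 in all Sham libraries to 12, 38 and 122. MSTRG.2786.3 went from 0, 0 and 99 to 163, 116 and 174 counts and was not called (adjusted p = 0.363). In mean CPM, MSTRG.2786.1 went from 9.57 to 5.04, MSTRG.2786.2 from 0 to 1.71 and MSTRG.2786.3 from 1.12 to 4.38.

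A transcript was taken as at the floor in a group when no library had over 3 counts. By this measure 12 transcripts were at the floor in IR and above it in every Sham library, and 13 the reverse, which is 1.00% and 1.09% of 1195. Over all transcripts with more than 3 counts somewhere, the shares were 0.486% and 2.24%. Of these 25 transcripts, 14 belonged to loci with at least 100 summed counts in every library. In DEX against IR, MSTRG.16088.2 and MSTRG.1626.2 were at the floor with DEX, and MSTRG.18648.8 was at the floor in IR, where 0.243% and 0.111% of all transcripts were in the corresponding classes.

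In DEX against IR, 920 transcripts were tested and 0 passed at an adjusted p under 0.05 by edgeR, against 0% of 25860. A DESeq2 Wald test called 10 and limma-voom 0. At an unadjusted p under 0.05, 30 were lower and 26 higher, against 1.94% and 1.92% of all transcripts. They were 32 and 38 without IR library 2, 24 and 43 without IR library 1, 32 and 51 without IR library 3, 56 and 63 without DEX library 3, and 17 and 27 with the replicate block. At the study's cutoff 15 were lower and 23 higher, against 1.19% and 1.16%. This total of 38 was 61 without IR library 1 or 2, 67 without IR library 3 and 94 without DEX library 3.

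Some transcripts of these loci stand in the lists of lncRNAs picked, on these same libraries, for opposite changes after occlusion and after DEX. The lists are therefore no independent evidence of a direction. Of transcripts listed as higher in IR and lower with DEX, 22 from 20 loci belong here, and 19 of them had 0 counts in every Sham and DEX library. In 12 of those 19, the counts came from a single IR library. MSTRG.4442.3 is one of these, with 744 counts in IR library 3 and 0 in the other 8 libraries. MSTRG.10467.1 and MSTRG.1317.1, by contrast, had counts in all 9 libraries, and so did MSTRG.4704.5, with 3, 1 and 10 counts in Sham, 38, 85 and 85 in IR and 21, 28 and 42 in DEX.

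Of transcripts listed as lower in IR and higher with DEX, 38 from 33 loci belong here. In every IR library 19 of them were at 0, and 11 of those 19 were also at 0 in at least 1 Sham and at least 1 DEX library. The remaining transcripts included MSTRG.1548.1, with 90, 175 and 182 counts in Sham, 47, 33 and 54 in IR and 123, 165 and 77 in DEX. For loci with transcripts in the first list only, the sum was higher in IR at an adjusted p under 0.05 in 7 of 17 (41.2%, against 23.2% of all features) and lower in 2. For loci in the second list only, it was lower in 22 of 30 (73.3%, against 21.2%) and higher in 2. Of all multi-transcript loci tested, 14.2% were higher and 51.1% lower. An excess in the listed direction was built in, since the lists were picked on these libraries. In DEX against IR, the sum moved in the listed direction with an unadjusted p under 0.05 in 2 of the 17 (11.8%) and 3 of the 30 (10%). Of all features, 2.03% were lower and 1.93% higher with DEX at that p, and of all multi-transcript loci 7.10% and 1.09%. An excess was built in here as well, since the lists were also picked for the change with DEX. Both lists held transcripts of MSTRG.1537, MSTRG.4442 and MSTRG.4704. Of these, MSTRG.4442 was lower in IR, with a mean of 234 ± 9.84 CPM in Sham, 148 ± 17.8 in IR and 133 ± 11.8 in DEX (SD, n = 3; adjusted p = 0.00584), and the sum of MSTRG.4704, at 3.19 CPM in Sham and 3.72 in IR, did not pass the test (adjusted p = 0.423).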

How the data were processed

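The authors deposited unnormalized whole-number counts for each transcript in each library. The submitters' processing notes name STAR 2.5.3a, StringTie 1.3.1 and the build rn6, while the study's methods name Trimmomatic, a mouse genome build and CLC Genomics Workbench. How reads shared by transcripts were divided is not given in the sources used here. Each group had 3 rats, and groups came from the sample labels.

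Counts were summed over the predicted transcripts of each locus. In R 4.3.3, edgeR 4.0.16 was run on the locus table (summed loci and annotated transcripts) and on the transcript table, with filterByExpr (count 10, total 15), TMM scaling and quasi-likelihood tests on the 6 libraries of each comparison, with Benjamini-Hochberg adjustment over the whole table. The standard error of a log2 fold change is its size over √F. CPM values are TMM-scaled over 9 libraries. Transcript shares were tested with diffSpliceDGE (Simes p per locus). Per-library shares had two-sided exact permutation tests (scipy 1.17.1). Floors are 3 counts in each library.

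Named loci are the 5 with the most transcripts, the 5 with the highest mean CPM, the 6 largest rises and 6 largest falls in IR (adjusted p under 0.05, no overlap, means of at least 1 CPM), the 4 smallest p in each direction with DEX, the 8 and 4 smallest share p, any with an unmoved sum (p over 0.2, log2 fold change under 0.3) and opposite transcripts, and those in both study lists. The loci and lists were chosen with earlier results of these data known. Alternatives were RLE and total-count scaling, 2 other filters, DESeq2 1.42.0, limma-voom (limma 3.58.1), a joint model of all 9 libraries, a replicate block and leaving out each library. On simulated counts for the IR against Sham locus table (25186 features, 200 changed) edgeR recovered 32.5% with 8 false calls, and for DEX against IR 10.5% with 2 false calls. In the data, 23.2% of features were called higher and 21.2% lower in IR. The recovery for IR against Sham therefore applies to far fewer changed features. Of the 40808 rat Ensembl identifiers in the count table, 0 matched the gene table at hand, so annotated genes are not named.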

Additional observations from a re-analysis of the deposited data

How the results depend on the processing

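The counts of called loci and transcripts in IR against Sham stayed within 1.5 times the reported values under all alternatives, except that 36 instead of 59 transcripts were higher at the study's cutoff when at least 10 counts were required in every library. Loci called lower at an adjusted p under 0.05 ranged from 147 to 197 and higher from 37 to 52 with a library left out, and at the study's cutoff from 161 to 186 and from 35 to 43. Transcripts ranged from 212 to 310 lower and 42 to 57 higher, and at the cutoff from 293 to 373 and from 60 to 69. In DEX against IR, DESeq2 called 3 loci and 10 transcripts at an adjusted p under 0.05, against 0 by edgeR, and 0 without any 1 library. At the cutoff, limma-voom gave 22 loci and 116 transcripts, and 74 transcripts passed without the filter on low counts, and with a library left out the counts ranged from 3 to 27 loci and from 45 to 94 transcripts.

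The changed shares numbered 1 in IR against Sham and 0 in DEX against IR when every transcript needed 10 counts in every library. Samples with the same replicate number did not vary together over all features (correlations from -0.28 to 0.06). No sign that the numbers pair samples was seen, but a weak shared effect could be missed. With the replicate block, 3 and 0 loci had changed shares, 38 loci were higher and 165 lower in IR, 9 loci and 17 transcripts were lower with DEX at an unadjusted p under 0.05 (26 and 30 without it), and the counts at an adjusted p or at the study's cutoff moved by less than 1.5 times. The positions and non-overlap counts with DEX without IR library 2 or DEX library 3 were added after seeing the data. Leaving out a library gave 9 to 13 and 1 to 9 loci with changed shares, 43 to 52 and 42 to 54 loci with another leading transcript, and differences in the share of counts of -2.26 to -1.85 percentage points (IR minus Sham), -2.37 to -1.80 (DEX minus Sham) and -0.29 to 0.29 (DEX minus IR). The last was -0.0531 as reported and turned to 0.997 as a share of the counts on predicted lncRNAs. It was 0.00879 without IR library 1, 0.123 without IR library 3 and 0.291 without DEX library 3. The lowest value, -0.29, came without IR library 2. Of the values of named loci under alternatives, 495 kept their direction and side of the threshold, 17 passed it newly and 6 lost it. The cause of these moves was not tested, other than where the filter removes transcripts listed at 0.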
